A study of Mus musculus with 2 samples.

Results

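Dlx and Msx genes encode homeodomain transcription factors of the NKL class, relatives of Drosophila Distal-less and muscle segment homeobox. The rows described here are those of 9 such genes, Dlx1 to Dlx6 and Msx1 to Msx3, together with Dlx6os1, a long noncoding RNA transcribed across the Dlx6 locus. These 10 members were taken by gene symbol and hold 11 of the 43346 mouse gene rows, because the symbol Dlx6os1 stands on 2 identifiers. The tissue is the limb at embryonic day 14.5 of mice of strain C57BL/6J, with no mutation, transgene or treatment named. There are 2 RNA sequencing libraries of polyadenylated RNA above 200 nucleotides, replicates 1 and 2 of 1 group, each made from littermates of both sexes. The strain's donor identifier is the same for both, and neither the limbs used, fore or hind, nor whether the litters were separate is stated. The p-values below therefore measure only the spread between these 2 samples, and no comparison between conditions could be made.

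In vertebrates the Dlx genes lie in convergent pairs that share regulatory elements, and their products mostly activate transcription. Msx proteins mostly repress it and are induced by bone morphogenetic protein (BMP) signals. In the limb bud both families are known from the apical ectodermal ridge, the ectodermal rim that sustains outgrowth, and Msx1 and Msx2 also from the mesenchyme beneath it and between the digits. Dlx5 and Dlx6 later act in cartilage and bone, and Dlx3 in the epidermis. In bulk tissue, fewer cells of a type and less RNA per cell cannot be told apart.

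The libraries held 110172148 and 103363136 deposited counts in gene rows. A count of 0 allows up to 3 counts, which is 0.0272 and 0.0290 counts-per-million (CPM) in replicates 1 and 2; intervals and such limits cover counting error only. The limb label was checked against marker lists: 5 of 5 limb mesenchyme genes, 3 of 3 limb identity genes, 5 of 5 chondrocyte genes and 3 of 3 skeletal muscle genes were detected. Levels are in transcripts-per-million (TPM), which are per transcript length and so can be compared between genes, and a gene was called detected at 1 TPM or more in both libraries. At that limit 62.8% of protein-coding rows were detected, the share against which counts of listed genes are to be read. No library stood against its label.

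The homeobox, the part of each gene that codes for the DNA-binding homeodomain, shows how close these genes are. It spans 60 codons, or 180 bases. In Msx2 and Msx3 it lies whole in exon 2, and in the 6 Dlx genes it is split over exons 2 and 3 as 132 and 48 bases. The homeoboxes of Msx3 and Msx2 are printed because the levels of these genes differ widely and their homeodomains little. They are from GENCODE M21 transcripts on GRCm38, written 5′ to 3′ on the coding strand. Capitals mark bases that differ from Msx2. Msx2 lies at chr13:53468370-53468549 and Msx3 at chr7:140047917-140048096, both on the minus strand.
Msx2: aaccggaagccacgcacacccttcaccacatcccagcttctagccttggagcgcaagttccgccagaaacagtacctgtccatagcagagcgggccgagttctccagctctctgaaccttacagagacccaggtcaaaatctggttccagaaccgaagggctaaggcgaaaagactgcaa
Msx3: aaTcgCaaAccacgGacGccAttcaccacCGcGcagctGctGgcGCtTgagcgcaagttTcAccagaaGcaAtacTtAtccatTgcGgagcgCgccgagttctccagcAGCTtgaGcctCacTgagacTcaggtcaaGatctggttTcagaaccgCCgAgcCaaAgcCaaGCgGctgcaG
Msx3 differed from Msx2 at 43 bases, but the encoded residues were identical at 57 of 60 positions.

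For the Dlx genes, Dlx5 is printed beside its pair partner Dlx6 and beside Dlx3, the next highest Dlx gene. Capitals mark bases that differ from Dlx5. Exon 2 gives the first 132 bases, at chr6:6879526-6879657 (minus strand), chr6:6865140-6865271 (plus strand) and chr11:95121767-95121898 (plus strand).
Dlx5: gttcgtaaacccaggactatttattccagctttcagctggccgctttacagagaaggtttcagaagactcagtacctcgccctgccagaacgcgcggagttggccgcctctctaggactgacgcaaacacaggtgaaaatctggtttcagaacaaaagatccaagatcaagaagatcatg
Dlx6: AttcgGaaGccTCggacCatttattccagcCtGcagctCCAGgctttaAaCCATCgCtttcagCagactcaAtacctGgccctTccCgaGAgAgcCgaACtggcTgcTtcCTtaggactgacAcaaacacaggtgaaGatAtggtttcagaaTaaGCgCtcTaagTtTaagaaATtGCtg
Dlx3: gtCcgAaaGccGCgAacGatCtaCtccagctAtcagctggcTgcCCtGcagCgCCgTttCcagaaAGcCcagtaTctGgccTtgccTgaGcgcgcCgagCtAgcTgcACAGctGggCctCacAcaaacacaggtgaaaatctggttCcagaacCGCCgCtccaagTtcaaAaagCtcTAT
Dlx6 differed from Dlx5 at 48 bases and Dlx3 from Dlx5 at 51 bases, with 51 and 53 of 60 residues identical. The closest Dlx homeodomains belonged to genes of different pairs: Dlx1 and Dlx6 shared 58 of 60 residues. The longest identical stretch on the same strand between transcripts of any 2 members was 44 nucleotides, between Dlx6 and Msx2, shorter than a single read. The deposited counts of all 10 members were whole numbers within 0.005 in both libraries, although estimated counts of genes that share reads need not be.

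Of the 10 members 8 were detected, and Msx1 stood far above the others. Of all gene rows 33.8% were detected, and of protein-coding rows 62.8%. Msx1, whose human counterpart is known from tooth agenesis and cleft palate, had 67.5 TPM in replicate 1 and 98.0 TPM in replicate 2, from 8760 and 11659 counts. Its mean of 82.8 ± 21.6 TPM (SD, n = 2) exceeded 91.4% of protein-coding genes. Msx2, known from skull growth and human craniosynostosis, had 14.5 TPM in replicate 1 and 14.9 TPM in replicate 2, so that its libraries nearly coincided. Msx1 was thus 4.64 and 6.60 times as high as Msx2 within replicates 1 and 2. Msx3, known in the mouse from the dorsal neural tube, had 1 count in each library and a TPM of 0.01. The intervals deposited for that TPM reached up to 0.0424 and 0.0463, and 1 count is under the 3 that a count of 0 allows, so Msx3 was not detectable at this depth. No fold is given against it.

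Among the Dlx genes, Dlx5 was highest. This regulator of cartilage and bone maturation had 14.95 TPM in replicate 1 and 16.4 TPM in replicate 2, a mean of 15.7 ± 1.04 TPM. Its partner Dlx6 had 5.68 and 6.02 TPM in replicates 1 and 2. The ratio of Dlx5 to Dlx6 was 2.63 in one library and 2.73 in the other, the steadiest of the 3 pair ratios. Dlx3, a regulator of epidermal differentiation and hair, had 6.93 TPM in replicate 1 and 7.06 TPM in replicate 2. Its partner Dlx4 had 1.97 and 1.62 TPM, and the ratio of Dlx3 to Dlx4 was 3.52 and 4.36.

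Dlx1 and Dlx2 are best known from forebrain interneurons and the branchial arches. Dlx1 had 3.60 TPM in replicate 1 and 5.16 TPM in replicate 2, and Dlx2 had 3.01 and 3.17 TPM. Dlx1 was the higher of the pair in both libraries, with ratios of 1.20 and 1.63. Dlx6os1, which in the mouse forebrain takes part in the control of Dlx5 and Dlx6, had 0.920 and 0.790 TPM on its long antisense gene, from 288 and 231 counts. It was below 1 TPM in both libraries. Its second identifier, a short RNA of 146 nucleotides, was listed at 0 with an effective length of 0, a length for which these tables give no level.

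**Figure D1:**
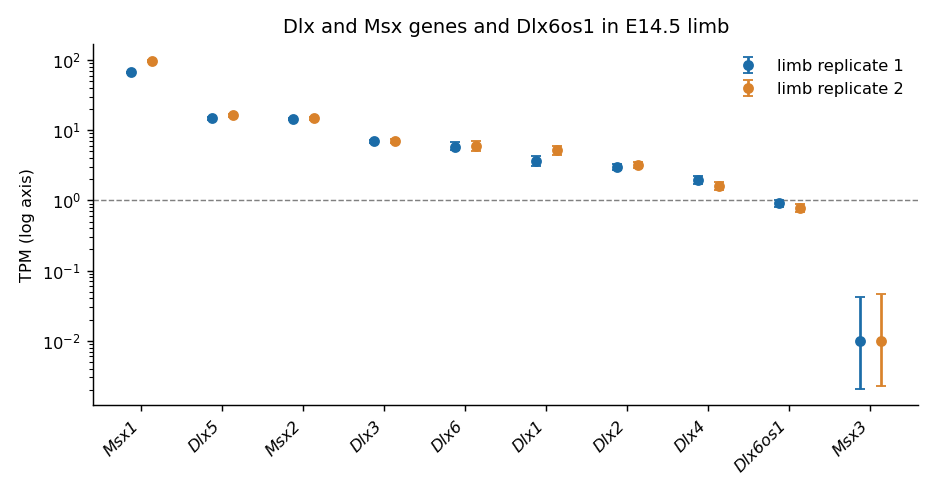
Level of each member in the 2 limb libraries, in TPM on a log axis, in order of the mean; bars are the interval bounds deposited with each TPM and the dashed line is 1 TPM. Msx1 stands at 67.5 and 98.0 TPM, 7 Dlx and Msx genes lie between 1.62 and 16.4 TPM, and Msx3 is at 0.01 TPM.

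Summed by pair, Dlx5 and Dlx6 gave 20.6 and 22.4 TPM, Dlx3 and Dlx4 gave 8.90 and 8.68 TPM, and Dlx1 and Dlx2 gave 6.61 and 8.33 TPM. The 6 Dlx genes together held 36.1 TPM in replicate 1 and 39.5 TPM in replicate 2. The 3 Msx genes held 82.1 and 113 TPM. Msx1 alone made up 56.7% and 64.0% of the summed TPM of the 10 members.

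The order of the levels was tested over all 45 pairs of members in limma, on log2(TPM + 1), with the spread taken from 15057 genes. The genes of a pair were treated as independent, although they were measured in the same libraries. Of the 45 differences 41 passed an adjusted p of 0.05 (limma, Benjamini-Hochberg over the pairs), and the higher gene was the same in both libraries for all 45. Msx3 takes part in 9 of the pairs, and of the 36 pairs without it 32 passed. Between neighbours in the order, 5 of 9 pairs passed. Adding 1 to each TPM shrinks differences that involve low genes.

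Msx1 exceeded Dlx5, the next in the order, by 2.31 ± 0.21 (SE) on the log2(TPM + 1) scale, with an adjusted p of 0.000156 (limma). The order of Dlx5 and Msx2 was not resolved: they differed by 0.09, with a 95% interval of -0.33 to 0.50. Msx2 exceeded Dlx3 by 0.97 (adjusted p = 0.00191, limma). Dlx3, Dlx6, Dlx1 and Dlx2 formed a run in which no neighbours could be separated in TPM. Dlx3 exceeded Dlx6 by 0.22 (95% interval -0.18 to 0.63), Dlx6 exceeded Dlx1 by 0.36 (-0.11 to 0.83) and Dlx1 exceeded Dlx2 by 0.38 (-0.09 to 0.85). The ends of that run did separate, since Dlx3 exceeded Dlx2 by 0.97 (adjusted p = 0.00199, limma). Below it, Dlx2 exceeded Dlx4 by 0.55 (adjusted p = 0.0249) and Dlx4 exceeded Dlx6os1 by 0.59 (adjusted p = 0.0236) in the same limma fit. Both lost the call when low genes were not filtered out, with adjusted p of 0.0922 and 0.121 (limma).

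**Figure D2:**
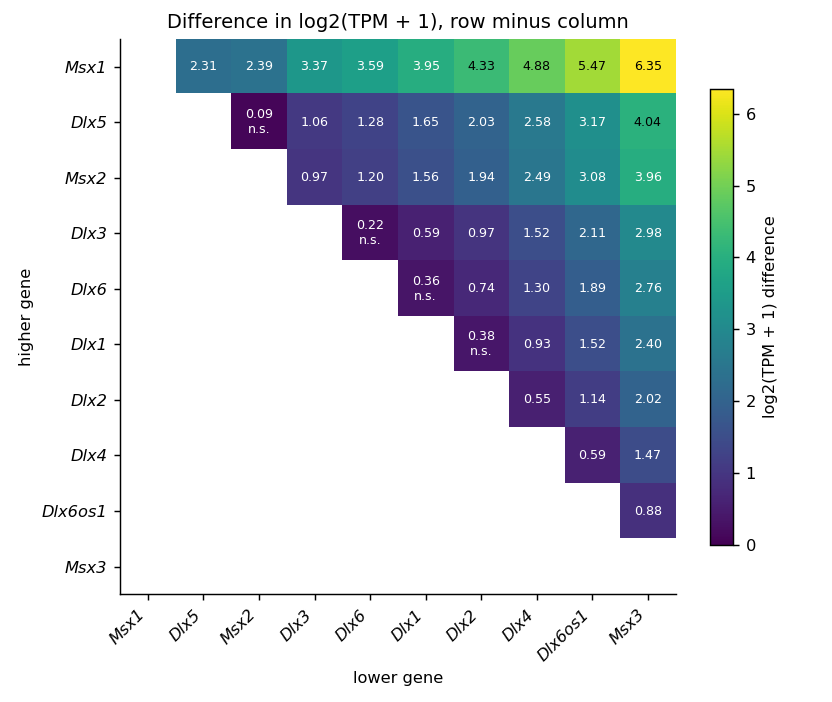
Difference in log2(TPM + 1) between the higher gene (row) and the lower gene (column) for each of the 45 pairs, as the mean over 2 limb libraries; n.s. marks the 4 pairs that did not pass an adjusted p of 0.05. The top row, Msx1 against the others, runs from 2.31 to 6.35, and the column of Msx3 rests on 1 count a library.

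Some of this order depends on dividing by transcript length. CPM were not divided by length and so also reflect it. On the CPM scale with TMM scaling, Msx2 was above Dlx5, by 0.74 on the log2(CPM + 1) scale (adjusted p = 0.00377, limma), whereas their TPM did not separate. Dlx1 and Dlx2 were also above Dlx6 in CPM, and Dlx6os1 above Dlx4, without passing the test. In TPM, Dlx6 over Dlx2 (adjusted p = 0.00623, limma) and Dlx4 over Dlx6os1 (adjusted p = 0.0236, limma) had passed it. Dlx3 exceeded Dlx6 by 1.44 in log2(CPM + 1) (adjusted p = 5.5e-05, limma), a pair that TPM did not separate. Dlx5 exceeded Dlx3 by 0.15 in log2(CPM + 1) (adjusted p = 0.449, limma), against 1.06 in log2(TPM + 1), so that its place as the highest Dlx gene was resolved in TPM and not in CPM. Dlx6 exceeded Dlx6os1 by 0.41 in log2(CPM + 1) (adjusted p = 0.0607, limma), against 1.89 in log2(TPM + 1). The effective length, the length over which fragments could start, was 1213 and 1184 bases for Dlx5 and 2194 and 2195 bases for Msx2.

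Between the libraries, 0 of the 8 detected members differed by more than 1.5-fold in TPM, against 10.2% of all detected genes. With 1 library on each side this has no test. The median absolute log2 ratio of the 8 members was 0.11, and that of all detected genes was 0.22. Msx1 came nearest to the limit: it was 1.45 times as high in replicate 2 as in replicate 1 in TPM and 1.42 times in CPM. Its deposited intervals, 65.6 to 68.4 TPM in replicate 1 and 95.4 to 98.9 TPM in replicate 2, did not overlap. Marker lists also differed between the libraries. The summed TPM of 5 limb mesenchyme genes was 577 in replicate 1 and 752 in replicate 2, that of 5 surface epidermis genes 991 and 677, and that of 5 chondrocyte genes 2139 and 2498. Their part in the Msx1 difference was not tested.

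Dlx1 was 1.43 times as high in replicate 2 in TPM, yet its CPM was 0.894 times that of replicate 1. Its effective length was 2043 bases in replicate 1 and 1286 bases in replicate 2, which is an average over its transcripts weighted by their levels. TPM and CPM moved in opposite directions in 3 of the 8 detected members, Dlx1, Dlx2 and Dlx6, against 8.81% of all detected genes. For Dlx2 the ratios of replicate 2 to replicate 1 were 1.05 times in TPM and 0.981 times in CPM. For Dlx6 they were 1.06 times in TPM and 0.858 times in CPM, with an effective length of 989 bases in replicate 1 and 806 bases in replicate 2.

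The transcript tables showed which RNAs of each gene the levels came from, in percent of the gene's TPM. Of the 9 members with more than 1 transcript row, 7 had the same leading transcript in both libraries, Msx3 among them on 1 count each. The same share over all genes was not computed, so this count has no background to be read against. Msx1-201, the spliced coding form, took 88.0% and 90.9% of Msx1 in replicates 1 and 2, and the retained intron form Msx1-202 took 12.0% and 9.15%. Msx2-201 took 93.2% and 96.4% of Msx2, and Dlx2-201 took 97.9% and 92.0% of Dlx2. Dlx3 has 1 annotated transcript, Dlx3-201. The single count of Msx3 in each library was assigned to Msx3-202, but the deposited posterior mean percents were 54.8% and 54.5% for Msx3-202 and 45.2% and 45.5% for Msx3-201, so its leading form was not resolved.

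Dlx5-201 took 89.1% and 86.7% of Dlx5 in replicates 1 and 2. Dlx5-202, also annotated as coding, took 10.9% and 13.3% and does not hold the whole homeobox. In Dlx6 the leading form Dlx6-203 took 69.1% and 55.2%. Dlx6-201 was at 0% in replicate 1 and 30.5% in replicate 2, from 0 and 48.6 counts. Its deposited intervals, up to 0.881 TPM in replicate 1 and 0.707 to 2.89 TPM in replicate 2, overlapped. The other forms took less in replicate 2: Dlx6-202 had 17.9% and 11.0%, and the retained intron form Dlx6-204 had 12.9% and 3.29%. Dlx6os1-202 led Dlx6os1 with 64.8% and 82.5%, and Dlx6os1-201 took the remaining 35.2% and 17.5%.

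Dlx1 and Dlx4 were the 2 members whose leading transcript, by share of TPM, differed between the libraries. In Dlx4 the coding Dlx4-201 took 43.2% in replicate 1 and 56.5% in replicate 2, and the noncoding Dlx4-202 took 56.8% and 43.6%. In Dlx1 the retained intron form Dlx1-203 led in replicate 1 with 33.3%, against 19.2% in replicate 2. The retained intron form Dlx1-206 led in replicate 2 with 30.1%, against 22.3% in replicate 1. In both genes the deposited TPM intervals of the 2 forms that led overlapped within each library, so the lead was not resolved. By counts, not divided by length, Dlx1-203 (287 and 218) and Dlx4-201 (133 and 131) led in both libraries. Dlx1-204, annotated as a target of nonsense-mediated decay, took 14.7% and 24.9%, and the coding forms Dlx1-205 and Dlx1-201 took 11.8% and 16.9%, and 17.8% and 6.90%.

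Coding transcripts as a whole held 29.7% of Dlx1 TPM in replicate 1 and 25.8% in replicate 2. Dlx1 was the 1 of 6 members with both coding and other transcripts that lay under 50% in both libraries. The same held for 11.9% of the 7890 detected protein-coding genes of that kind. Counting only transcripts that hold the whole homeobox gave 1.44 and 1.91 TPM for Dlx1, a mean of 38.5 ± 2.06% of the gene. Most of that was the retained intron form Dlx1-206, with 0.800 and 1.55 TPM. The coding form that holds the homeobox, Dlx1-201, had 0.640 TPM in replicate 1 and 0.360 TPM in replicate 2. The same sum was 0.850 and 0.910 TPM for Dlx4, 13.3 and 14.2 TPM for Dlx5, 4.94 and 5.82 TPM for Dlx6, and 13.6 and 14.3 TPM for Msx2. Dlx2 and Dlx3 carried it in all of their TPM. By this sum Dlx2, with 3.01 and 3.17 TPM, was above Dlx1 in both libraries, the reverse of the order by gene TPM; this difference was not tested. How short reads are divided among overlapping transcripts is an estimate. It can be checked here only between the 2 libraries and against the deposited intervals and posterior means.

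**Figure D3:**
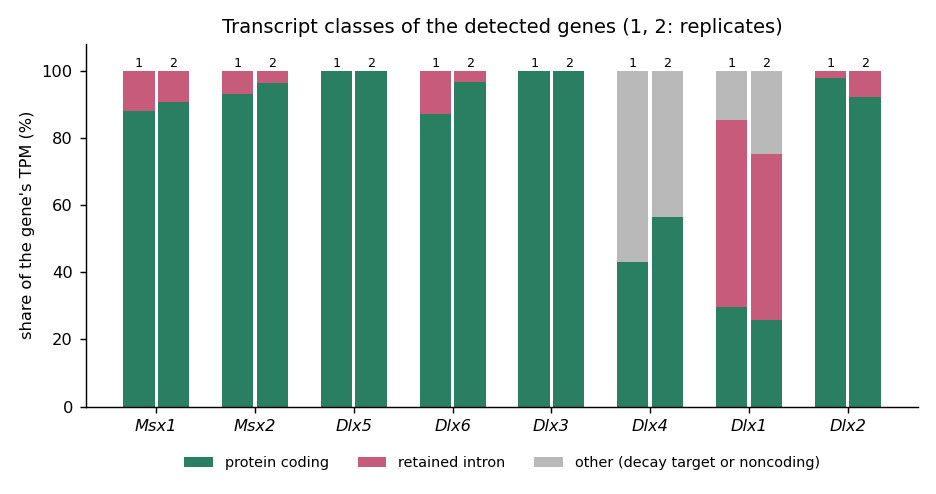
Share of each detected gene's TPM, in percent, in protein-coding, retained intron and other transcripts, with 1 stacked bar for each limb library. Coding transcripts hold 29.7% and 25.8% of Dlx1 and 43.2% and 56.5% of Dlx4, and at least 87.1% of each of the other 6 genes.

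All 3 Dlx pairs are convergent, the first gene on the plus strand and the second on the minus strand. On mm10, Dlx1 and Dlx2 lie on chromosome 2 with 9426 bases between them, Dlx3 and Dlx4 on chromosome 11 with 15150 bases, and Dlx6 and Dlx5 on chromosome 6 with 9236 bases. The gene with the higher TPM lay on the plus strand in the pairs of Dlx1 and Dlx3, and on the minus strand in that of Dlx5. Antisense RNAs overlap a member in every pair. Dlx1as had 0.630 and 0.960 TPM in replicates 1 and 2, Dlx4os 1.97 and 1.71 TPM, and Dlx6os2 0.01 and 0.04 TPM. Dlx4 itself had 1.97 and 1.62 TPM, close to Dlx4os in both libraries. The libraries were strand-specific per the labels, but no source used here says whether the counting used the strand. Values of overlapping genes on opposite strands are therefore uncertain where their exons overlap.

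**Figure D4:**
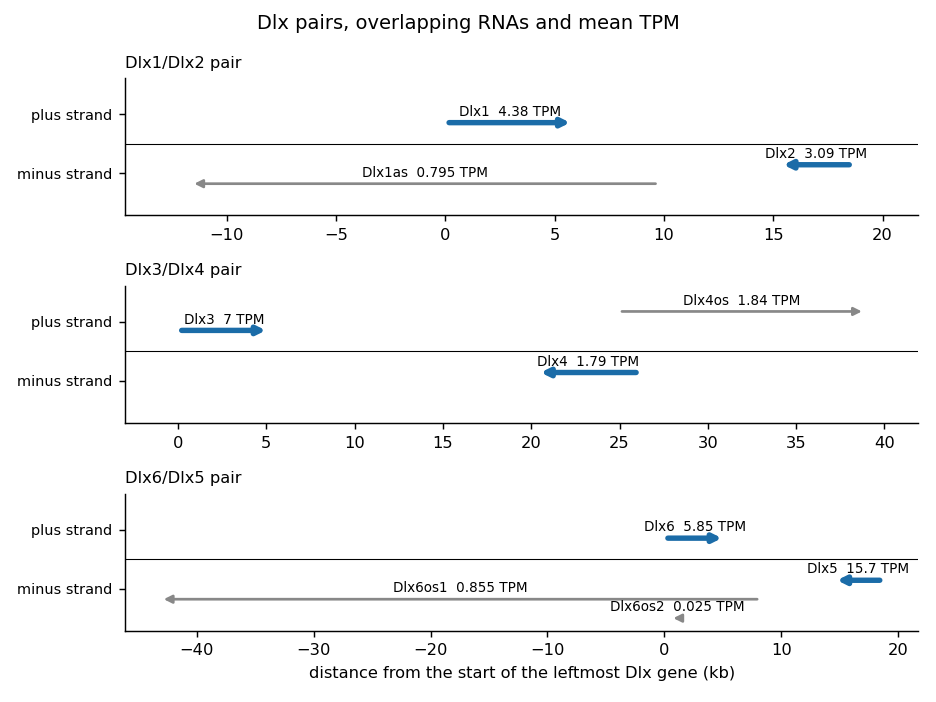
Layout of the 3 Dlx pairs by strand, in kilobases from the start of the leftmost Dlx gene, with mean TPM over the 2 limb libraries. Dlx genes are blue and overlapping RNAs grey; arrows give the direction of transcription. The 2 Dlx genes of each pair point towards each other, and the antisense RNAs lie between 0.025 and 1.84 TPM.

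The nearest protein-coding genes ranged from 0 to 198 TPM. Beside Dlx1, Metap1d, a methionine aminopeptidase gene that ends 2919 bases away, had 72.3 and 64.9 TPM, and Itga6 on the other side of that pair had 41.5 and 40.7 TPM. Beside Dlx3 and Dlx4, Itga3 had 10.6 and 11.7 TPM and Tac4 had 0.06 and 0 TPM. Beside Dlx5 and Dlx6, the proteasome gene Sem1 had 103 and 59.5 TPM and Sdhaf3 had 2.43 and 1.80 TPM. Msx1 lies between Cytl1, with 162 and 198 TPM, and Stx18, with 35.1 and 26.6 TPM. Msx2 lies between Sptlc1, with 27.4 and 27.7 TPM, and Drd1, with 0.02 and 0.06 TPM. Msx3, at 0.01 TPM, lies 5555 bases from Zfp511, which had 28.8 and 36.0 TPM, and 20791 bases from Caly, which had 0.410 and 0.280 TPM.

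Windows of 250 bases before the start were matched by symbol in the RefSeq promoter table (GRCm38.p6) for 6 of the 10 members, Dlx1, Dlx2, Dlx6os1, Msx1, Msx2 and Msx3. Those of Msx1 and Msx3 are printed for the contrast in level between the highest and the lowest member. That of Dlx6os1 is printed for its base composition. It is the first of 2 windows listed for Dlx6os1 and lies inside the annotated span of the gene. The bases just after its start matched no annotated Dlx6os1 transcript, whereas those after the second window did. That match was sought anywhere in a transcript and does not show where one starts. The leading form, Dlx6os1-202, has its annotated start at chr6:6861591 on the minus strand, shortly downstream of the printed window. Capitals mark matches on either strand to the TATA box (TATAAA), the CCAAT box (CCAAT), the GC box (GGGCGG), a Dlx-type homeodomain core (TAATTA) and an Msx-type homeodomain core (TAATTG). No matches overlapped in these windows. All 3 are on the minus strand, Msx1 at chr5:37824586-37824835, Msx3 at chr7:140049089-140049338 and Dlx6os1 at chr6:6861684-6861933.
Msx1: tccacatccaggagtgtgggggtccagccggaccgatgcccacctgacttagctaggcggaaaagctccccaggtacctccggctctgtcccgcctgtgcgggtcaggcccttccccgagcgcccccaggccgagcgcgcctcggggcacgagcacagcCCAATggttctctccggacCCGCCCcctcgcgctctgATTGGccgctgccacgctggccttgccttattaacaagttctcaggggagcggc
Msx3: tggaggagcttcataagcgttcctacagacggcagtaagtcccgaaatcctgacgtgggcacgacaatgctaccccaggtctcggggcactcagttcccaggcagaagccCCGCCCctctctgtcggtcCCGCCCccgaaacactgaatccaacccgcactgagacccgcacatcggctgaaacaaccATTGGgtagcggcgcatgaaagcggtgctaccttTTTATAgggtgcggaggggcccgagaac
Dlx6os1: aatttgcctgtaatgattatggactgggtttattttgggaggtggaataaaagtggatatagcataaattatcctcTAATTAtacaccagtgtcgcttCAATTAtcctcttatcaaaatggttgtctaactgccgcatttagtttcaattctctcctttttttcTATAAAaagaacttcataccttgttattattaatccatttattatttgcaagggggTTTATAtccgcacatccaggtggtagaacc
The Msx1 window held 68.0% G and C, 2 CCAAT boxes and 1 GC box. The Msx3 window held 60% G and C, 1 CCAAT box, 2 GC boxes, and a TATA box with position -28 relative to the start. Of all 32851 windows of that length, 12.4% hold a TATA box, 33.8% a CCAAT box and 32.7% a GC box. The Dlx6os1 window held 34.0% G and C, lower than all but 3.87% of windows, with 2 TATA boxes. It also held 1 Dlx-type and 1 Msx-type core, which 4.84% and 7.17% of windows hold. The second Dlx6os1 window, not printed, held 33.2% G and C, 0 TATA boxes, 1 CCAAT box, 2 Dlx-type cores and 0 Msx-type cores. A match describes the letters and shows no binding.

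Set beside the rest of their class, Dlx and Msx genes were detected in 8 of 9 cases, with a median level of 5.85 TPM. Of the other 38 NKL homeobox genes 10 were detected, and their median level was 0.113 TPM. Protein-coding genes as a whole had a median of 5.84 TPM. Msx1 was first of the 47 genes. Dlx5 was in place 3, between Hlx at 16.7 ± 4.57 TPM and Emx2 at 15.6 ± 2.04 TPM, and Msx2 in place 5, ahead of Barx2 at 13.2 ± 1.20 TPM (SD, n = 2 each). These 5 genes from Hlx to Barx2 lie closer together than the SD of Hlx. Nkx3-2, at 10.3 ± 2.33 TPM, stood before Dlx3 in place 9 and Dlx6 in place 10. Dlx4 was the last of the 18 detected genes of the class.

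**Figure D5:**
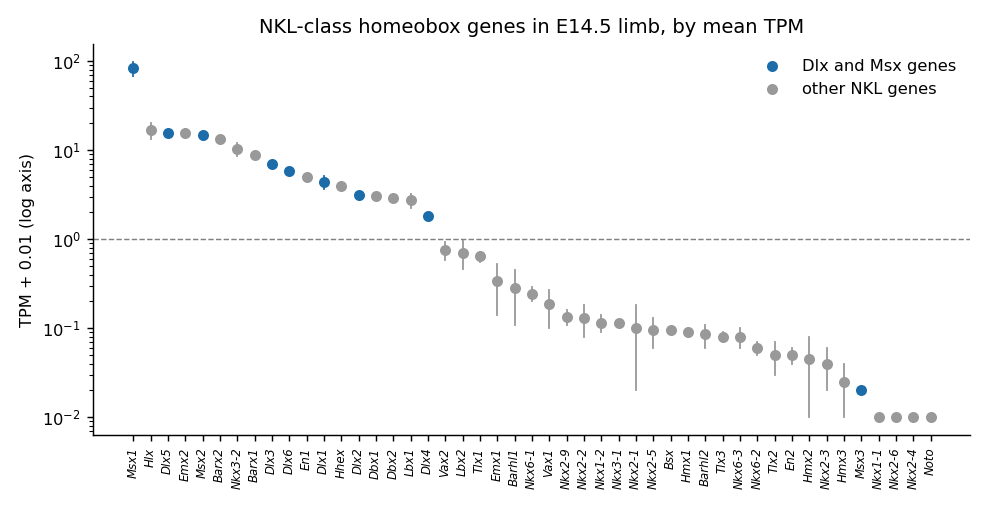
Mean TPM of the 47 NKL-class homeobox genes over 2 limb libraries, on a log axis with 0.01 added, in order of the mean; vertical lines join the 2 libraries and the dashed line marks 1 TPM. Dlx and Msx genes are blue: 8 of 9 lie above the line, against 10 of 38 other genes.

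The BMP pathway, which induces Msx genes, was detected in 19 of 19 listed genes, with a median of 30.7 TPM. Of all protein-coding rows 62.8% were detected. Its 4 highest were the target genes Id1, Id3 and Id2, at 415, 403 and 119 TPM, and the signal transducer Smad4 at 68.9 TPM. Among the ligands, Bmp7 had 34.9 and 42.6 TPM, Bmp4 27.8 and 33.7 TPM and Bmp2 9.19 and 12.9 TPM in replicates 1 and 2. The BMP antagonists Chrd, Nog and Grem1 had 25.6 and 30.2 TPM, 16.2 and 22.1 TPM, and 5.72 and 4.76 TPM. All 9 listed cofactors with a row were detected. Maged1, a partner of Dlx5 and Msx2, had 773 and 802 TPM, and Aes, Tle2, Ndn, Hdac1 and Tle3 were also above Msx1.

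Of 12 described targets of Dlx and Msx factors 9 were detected, beside 62.8% of all protein-coding rows. The 4 highest were the bone collagen gene Col1a1, at 1181 and 1283 TPM, the epidermal keratins Krt1 and Krt10, and the bone matrix gene Ibsp. Runx2 and Sp7, which direct osteoblast differentiation, had 22.8 and 30.7 TPM, and 18.3 and 26.4 TPM. The 3 below the limit were Bglap, a gene of mature osteoblasts, and Gad1 and Gad2, which make the transmitter GABA in interneurons. Of genes tied to split hand and foot malformation in humans, 7 of 7 with a row were detected, among them the members Dlx5 and Dlx6. They were Sem1, Fbxw4, Trp63, Dlx5, Btrc, Wnt10b and Dlx6, of which Trp63, the p63 gene upstream of Dlx genes in limb ectoderm, had 22.9 and 22.6 TPM.

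Markers of cell types in which these genes are known differed widely in level. All 5 surface epidermis genes were detected, led by Krt5, Krt14, Krt1 and Krt10 at means between 152 and 285 TPM. All 4 hypertrophic chondrocyte genes were detected, led by Col10a1 at 140 TPM with Ibsp, Ihh and Mmp13, as were 5 of 6 osteoblast genes, led by Ibsp, Spp1, Alpl and Runx2. Of 6 apical ectodermal ridge genes 3 were detected, Fgf9, Sp6 and Sp8, and the list summed to 12.4 and 11.7 TPM. Fgf8, the defining ridge ligand, had 0.950 and 1.20 TPM. Of 8 genes of forebrain GABAergic neurons 3 were detected, Lhx8, Sp9 and Lhx6 at means between 1.75 and 2.48 TPM, followed by Gad1, and the list summed to 8.54 and 7.25 TPM with none at 0 counts. Of 5 dorsal neural tube genes, the known site of Msx3, 0 were detected, and Wnt3a, Lmx1a, Atoh1 and Olig3 led a sum of 1.49 and 1.52 TPM. The part of each cell type in the Dlx and Msx levels was not tested. Chondrocyte genes were led by Col2a1, Matn1, Col9a1 and Acan, limb mesenchyme genes by Twist1, Prrx2, Hoxd13 and Prrx1, and muscle genes by Acta1, Myog and Myod1, and the limb identity genes were Pitx1, Tbx4 and Tbx5.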

How the data were processed

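Polyadenylated RNA of E14.5 limb was sequenced as strand-specific paired ends in 2 libraries. For each, the authors deposited gene and transcript tables on mm10 with GENCODE M4, per the text deposited with them; no source used here names the program. They hold, per the file headers, expected counts, TPM and posterior mean TPM, each transcript's percent of its gene, effective lengths and interval bounds whose level is not stated. Percents of TPM by class were summed from transcript TPM.

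Symbols and coordinates came from GENCODE M21 (GRCm38), joined by identifier; 884 rows had no match. Rows for spike-ins, phiX and tRNA were left out; gene rows held 96.3% and 95.7% of deposited counts. Pairs of members were compared with limma 3.58.1 (R 4.3.3) on log2(TPM + 1), eBayes with trend, over all members and every gene averaging 1 TPM or more, with 5.32 moderated degrees of freedom. The moderated variances of both genes gave the error, without use of their pairing by library. Each p was two-sided, adjusted by Benjamini-Hochberg over the 45 pairs. The fit was also run on simulated data, with independent genes and spreads drawn from the fit itself. Such data cannot test that error model or the sharing of libraries, and no conclusion is drawn from them. Alternatives used edgeR 4.0.16 TMM factors, DESeq2 1.42.0 size factors, posterior mean TPM, other pseudocounts and filters, and leaving out each library.

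Named were the members, their transcripts with at least 10% of the gene in either library, overlapping and neighbouring genes, and of each list the 4 highest genes and those above Msx1. Some lower genes of the lists were also named, such as BMP ligands and antagonists. Members and lists were chosen with earlier results of these data known. The lists were chondrocyte, hypertrophic chondrocyte, osteoblast, surface epidermis, apical ectodermal ridge, limb mesenchyme, limb identity, skeletal muscle, forebrain GABAergic neuron, dorsal neural tube, NKL homeobox, BMP pathway, cofactors, described targets and split hand and foot. Homeoboxes were found by translating transcripts with Biopython 1.88. Some items are not reported here.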

Additional observations from a re-analysis of the deposited data

How the results depend on the processing

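The number of detected members was 8 at 1 TPM, 9 at 0.5 TPM and 5 at 5 TPM; posterior mean TPM or either library alone also gave 8. Of the other NKL genes 10 were detected at 1 TPM, 12 at 0.5 TPM and 5 at 5 TPM. The count of members past 1.5-fold between libraries was 0 in TPM, posterior mean TPM and CPM under both scalings and 0 at 2-fold, but 2, Msx1 and Dlx1, at the smaller alternative fold. Of the 45 pairs, 41 passed with posterior mean TPM, with pseudocounts of 0.1 and 0.5 and with a filter at 5 TPM, 39 with TMM-scaled CPM and 37 without a filter; all limma tests. With CPM 4 differences reversed, on the log2(CPM + 1) scale: Dlx5 over Msx2 was -0.74, Dlx6 over Dlx1 -0.34, Dlx6 over Dlx2 -0.29 and Dlx4 over Dlx6os1 -0.15. In CPM the calls of Dlx5 over Dlx3 and Dlx6 over Dlx6os1 were lost with the direction kept. Of the 4 reversed differences, Dlx6 over Dlx2 and Dlx4 over Dlx6os1 also lost their calls, with adjusted p of 0.166 and 0.449 (limma). Dlx5 and Msx2, not called in TPM, passed in the reversed direction. A call was gained for Dlx3 over Dlx6, and 37 were kept. CPM is not divided by transcript length. Without a filter, 4 pairs lost their call as the moderated degrees of freedom fell to 1.68: Dlx3 over Dlx1, Dlx1 over Dlx4, Dlx2 over Dlx4 and Dlx4 over Dlx6os1. By share of TPM, the leading transcript was shared by the libraries in 7 of 9 genes, also by posterior mean percent. There is 1 group, so no samples pair across groups. Genes of a pair do share libraries, but the limma tests did not use that pairing. The mean within-library difference exceeded its SD over the 2 libraries in 45 of 45 pairs, a description with no test. With 1 library left out no pair could be tested, and its differences kept their direction in all 45 pairs. Depth limits Msx3, at 1 count a library.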
